A study of Arabidopsis thaliana with 12 samples.

Results

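RNA crosslinked to the fibrillarin GFP-FIB1 was compared with RNA recovered in the same way from plants that carried GFP alone. The comparison took 8 of the 12 libraries of a crosslinking and immunoprecipitation series in Arabidopsis thaliana, 4 labelled with the genotype GFP-FIB1 and 4 with the genotype GFP, chosen by their sample titles. All were made from whole seedlings of the cultivar Col-0, 14 days old, grown on plates with sucrose at 23°C in long days and crosslinked with ultraviolet light. No source used here gives the promoter or the number of lines behind either transgene, or says whether the numbered replicates were separate plantings, so p-values measure the spread between these libraries. The peak lists of the 8 libraries held 651552 of the 1037099 peaks of the series. Each peak carries the name of a gene or a numbered intergenic region, and 76747 regions had a peak in at least 1 of the 8 libraries.

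Fibrillarin is the enzyme that places methyl groups on the ribose of ribosomal RNA. It works inside a particle built on a box C/D small nucleolar RNA (snoRNA), together with NOP56, NOP58 and an SNU13 protein that holds the folded C and D boxes. The stretch just before box D, or before an internal copy called box D′, pairs with the target RNA and sets the base to be methylated. The other large family of snoRNAs, with H and ACA boxes, guides pseudouridine formation with a different enzyme (NAP57) and carries no fibrillarin. U3 is a box C/D snoRNA that acts in cutting and folding the ribosomal RNA precursor rather than in methylation.

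Of 287 annotated snoRNA genes, 167 were called box C/D, 30 were called H/ACA, and 90 stayed unclassified. Of the 167, 165 held a box C and a box D within set limits of place and length, and U3B and U3D were set by name. The 8 genes below show what separates the classes, and the results that follow turn on them. The first 6 are box C/D genes with very large changes or very high levels, the next is the box C/D gene with the smallest change, and the last is an H/ACA gene. Capitals mark box C (TGATGA, at most 1 mismatch) and box D (CTGA), or the ACA box in the last gene. Sequences are from RefSeq, TAIR10.1.
U60.1F (AT5G52471): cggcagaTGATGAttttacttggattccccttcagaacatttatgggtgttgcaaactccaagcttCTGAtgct
AT5G02675: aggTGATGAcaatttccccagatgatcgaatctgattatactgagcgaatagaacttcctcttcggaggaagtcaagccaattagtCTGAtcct
AT1G09883: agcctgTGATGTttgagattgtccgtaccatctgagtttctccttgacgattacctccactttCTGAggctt
AT3G47347: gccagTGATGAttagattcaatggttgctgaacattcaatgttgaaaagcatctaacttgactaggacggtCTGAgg
AT5G07725: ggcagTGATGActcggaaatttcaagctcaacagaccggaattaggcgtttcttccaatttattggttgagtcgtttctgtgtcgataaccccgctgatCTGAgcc
AT1G08347: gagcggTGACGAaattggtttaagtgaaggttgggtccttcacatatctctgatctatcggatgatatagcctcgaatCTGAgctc
AT5G58595: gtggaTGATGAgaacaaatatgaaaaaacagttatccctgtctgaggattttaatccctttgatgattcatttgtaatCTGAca
AT2G04955 (H/ACA): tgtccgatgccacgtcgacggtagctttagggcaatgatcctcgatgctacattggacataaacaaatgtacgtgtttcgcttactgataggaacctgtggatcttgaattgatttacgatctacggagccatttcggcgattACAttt

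U60.1F lies on the plus strand at chr5:21295736-21295809, inside the protein-coding FIB1 gene itself. AT5G02675 lies on the minus strand at chr5:5674579-5674672, and AT1G09883 on the minus strand at chr1:29911741-29911812 inside the protein-coding gene AT1G79520. AT3G47347 (chr3:17445810-17445886, plus strand), AT5G07725 (chr5:20795723-20795828, plus strand), AT1G08347 (chr1:22394549-22394634, minus strand), AT5G58595 (chr5:23682880-23682963, minus strand) and AT2G04955 (chr2:2184672-2184820, minus strand) lie outside protein-coding genes. None of the first 7 shares a word of 25 nt with another place in the annotated genome. Directly before box D, AT3G47347 holds the run GACTAGGACGGT, which is complementary to 12 nt of 18S ribosomal RNA. The 18S base opposite the fifth nt before its box D is position 1013 of the annotated gene AT3G41768. In the same place AT5G07725 holds CCCCGCTGAT, complementary to 10 nt in the 3600 nt after the 5.8S gene that were taken as the 25S region. A complementary run is a match of letters and not a measured target.

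Depth and sample structure came first. Reads in peaks were 4193064, 10564158, 6997581 and 5815004 in GFP-FIB1 replicates 1 to 4, against 2858968, 4775962, 11866587 and 7467826 in GFP replicates 1 to 4. Values below are reads per 1000000 reads in peaks (RPM), and a region in which no peak was called has the value 0, which says nothing of reads outside peaks. The lists name no molecular identifiers, so reads may include PCR copies. Across 17226 protein-coding genes the 12 libraries fell into 3 clusters that did not follow the genotypes. GFP replicates 1 and 2 sat with 1 CFP-FIB2 library, 8 libraries formed a large cluster with GFP-FIB1 replicates 2 to 4 and GFP replicates 3 and 4, and GFP-FIB1 replicate 1 stood alone. Pearson correlations of log2(RPM + 1) were 0.470 to 0.805 within clusters, 0.459 to 0.577 between GFP-FIB1 replicate 1 and the small cluster, and 0.136 to 0.246 between the large cluster and the other libraries. The labels do not say what the clusters are. The model fitted to all regions therefore carries a cluster term, and GFP-FIB1 replicate 1, a cluster of its own, does not enter its fold changes. GFP replicates 1 and 2 share their cluster with no GFP-FIB1 library, so they enter only indirectly, through the CFP-FIB2 libraries. The fold changes with the cluster term thus rest mainly on GFP-FIB1 replicates 2 to 4 against GFP replicates 3 and 4. Values of all 8 libraries are printed beside them. Counts are also given without the cluster term, and in 2 divisions chosen after seeing the data. One only joins replicate 1 to the small cluster, and the other also parts the large cluster, with GFP-FIB1 replicate 2 and GFP replicate 3 in 1 piece.

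Box C/D snoRNAs made up most of what was higher in GFP-FIB1, with 99 of the 147 regions called (0.465% of the 31640 tested). Their share of all reads in peaks was 0.647, 11.97, 7.08 and 10.1% in GFP-FIB1 replicates 1 to 4, against 0.0278, 0.155, 0.253 and 0.513% in GFP replicates 1 to 4. Every GFP-FIB1 library lay above every GFP library, but GFP-FIB1 replicate 1 lay close to GFP replicate 4. The means were 7.45 ± 4.96% in GFP-FIB1 and 0.237 ± 0.206% in GFP (SD, n = 4 each). The two-sided exact permutation p was 0.0286, the smallest that 4 against 4 libraries allow, and 0.114 after adjustment over the 4 library-level values tested. Within the large cluster the means were 9.72% in 3 GFP-FIB1 libraries and 0.383% in 2 GFP libraries (exact permutation p = 0.2). These shares count peaks named for a box C/D gene. With peaks assigned by overlap with the annotated gene, the difference of the means over the 8 libraries was 10.1 percentage points, against 7.21. The seedlings were taken whole, so more snoRNA in a cell and more cells rich in it cannot be told apart, and neither can be told apart from more RNA recovered with the bait.

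**Figure D1:**
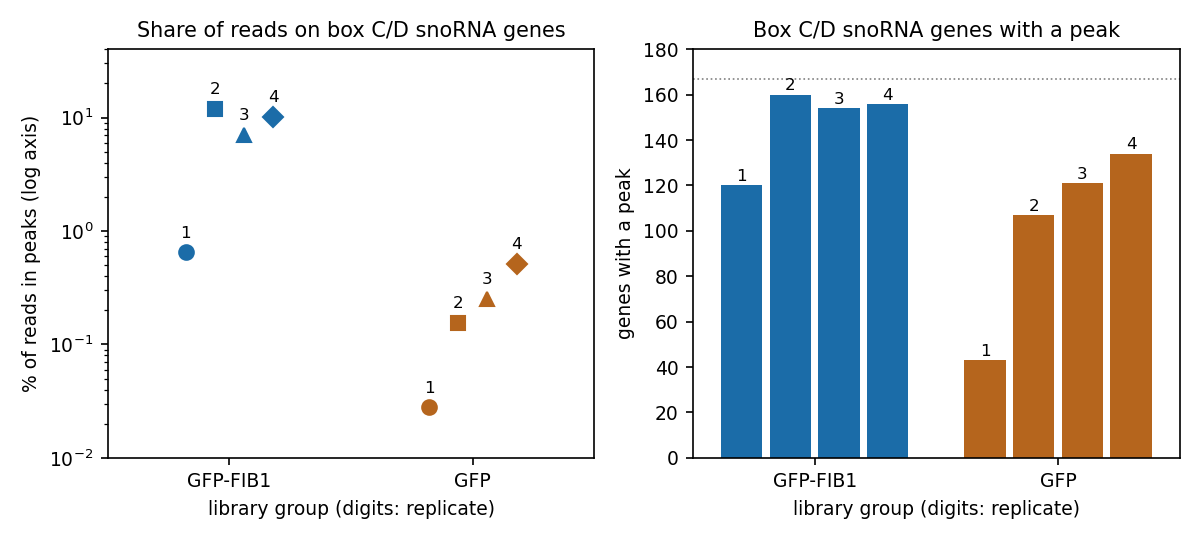
Left, the share of reads in peaks on box C/D snoRNA genes in each library (log axis, % of reads); right, the number of box C/D genes with at least 1 peak, with a dotted line at all 167 genes. Digits give the replicate; the 4 GFP-FIB1 libraries run from 0.647 to 11.97% and the 4 GFP libraries from 0.0278 to 0.513%.

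Higher values ran through the family. A peak was called on 120, 160, 154 and 156 of the 167 box C/D genes in GFP-FIB1 replicates 1 to 4, against 43, 107, 121 and 134 in GFP replicates 1 to 4. Among the 154 box C/D genes with enough reads to be tested, the median gene had 13.6, 193, 222 and 325 RPM in GFP-FIB1 replicates 1 to 4, against 0, 3.77, 3.75 and 17.2 RPM in GFP replicates 1 to 4. GFP-FIB1 replicate 1 thus had a lower median than GFP replicate 4. In limma with the cluster term, 99 of the 154 rose in GFP-FIB1 at an adjusted p under 0.05 (Benjamini-Hochberg over 31640 regions) and none fell, and 150 had an unadjusted p under 0.05 in the upward direction, beside 1.77% of all regions. Over all regions tested the share called higher was 0.465% (147 regions), and the share called lower was 0.00632% (2 regions). All 154 fold changes were positive, from 0.95 to 6.78 with a median of 4.20 on the log2 scale, beside a median of 0.10 over all regions.

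How many genes passed depended on how the clusters were handled. Without the cluster term, 14 of the 154 box C/D genes passed, with 18 regions higher in all (0.0569% of those tested). With GFP-FIB1 replicate 1 only joined to the small cluster, 80 passed, with 116 regions higher in all (0.367%). With replicate 1 joined and the large cluster parted as well, 112 passed, with 171 regions higher in all (0.54%). The median log2 fold change of the 154 genes was 4.34 without the term, 3.61 with replicate 1 only joined and 3.6 with the large cluster parted as well. All 4 GFP-FIB1 values lay above all 4 GFP values for 54 of the 154 genes, beside 0.986% of all regions. For 142 of the 154, replicates 2 to 4 lay above all 4 GFP values, beside 5.27% of all regions. None of the 154 had all 4 GFP-FIB1 values below all 4 GFP values, against 0.828% of all regions. Leaving out GFP replicate 3 left 46 regions higher, 35 of them box C/D, and leaving out GFP-FIB1 replicate 4 left 90 and 63.

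**Figure D2:**
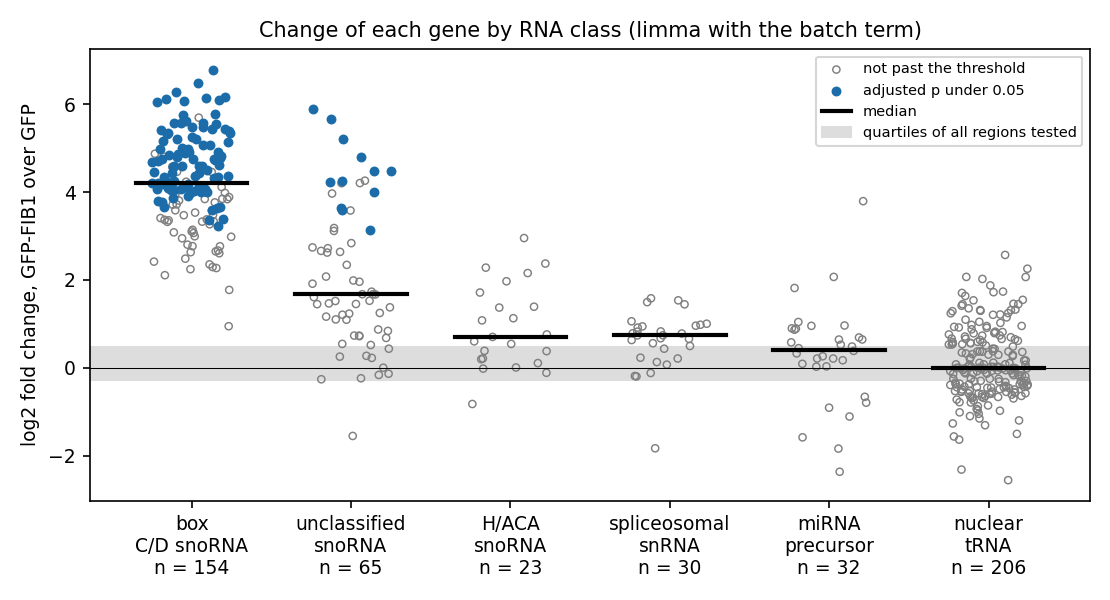
Log2 fold change of GFP-FIB1 over GFP for every tested gene of 6 classes of small RNA, from limma with the cluster term (called batch term in the title). Filled points have an adjusted p under 0.05, bars are class medians (4.20 for box C/D, 0.70 for H/ACA) and the grey band holds the middle of all regions tested.

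U60.1F, a box C/D snoRNA of the U60 family, showed the largest rise. It had 44.4, 79.6, 164 and 301 RPM in GFP-FIB1 replicates 1 to 4, against 0, 0, 0 and 1.47 RPM in GFP replicates 1 to 4. The groups did not overlap, and the only GFP library with a peak held 11 reads of it. The log2 fold change was 6.78 ± 0.65 (SE, adjusted p = 2.87e-05 by limma), and adjusted p was 4.29e-04 without the cluster term. The FIB1 gene that hosts it was also called, with 64.2, 243, 292 and 558 RPM in GFP-FIB1 against 29.7, 41.9, 4.97 and 18.7 RPM in GFP (log2 fold change 4.32 ± 0.76, limma adjusted p = 0.00631). However, 100% of the FIB1 reads in GFP-FIB1 libraries lay in peaks that overlap U60.1F. The labels do not say whether the transgene carries this stretch, so snoRNA made from the transgene and from the native gene cannot be told apart.

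AT5G02675, another box C/D gene, was the one among the largest rises in which GFP-FIB1 replicate 1 was highest. It had 528, 178, 105 and 237 RPM in GFP-FIB1 replicates 1 to 4, against 8.39, 11.3, 0 and 2.54 RPM in GFP. Its log2 fold change was 6.48 ± 0.72 (limma adjusted p = 2.07e-04). AT1G09883 had 22.7, 389, 804 and 1132 RPM in GFP-FIB1, against 1.4, 11.1, 2.53 and 20.1 RPM in GFP (6.17 ± 0.78, limma adjusted p = 0.00102). With overlapping peaks of a library reduced to the one with most reads, both calls were lost. The values were 4.99 for AT5G02675 (limma adjusted p = 0.432) and 5.59 for AT1G09883 (limma adjusted p = 0.278). That setting keeps 1 region name per group of overlapping peaks, so reads on a snoRNA gene can pass to an overlapping gene. Box C/D genes tested fell from 154 to 127 in it. AT5G02675 lies within AT5G02645 and AT1G09883 within AT1G79520, both called higher. The part of such renaming in the lost calls was not tested. In both snoRNA genes the groups stood apart, in AT1G09883 by a narrow margin that rests on GFP-FIB1 replicate 1 and GFP replicate 4.

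The other snoRNA genes with the largest rises and groups that did not overlap were AT2G08370, AT1G06263, AT1G20015, AT1G06233, AT5G02575, AT1G04527 and AT2G35747. Their log2 fold changes ran from 5.58 to 6.14 and their limma adjusted p from 0.00269 to 0.0363. AT5G02575 held both boxes but, at 290 nt, exceeded the 200-nt limit and stayed unclassified. The other 6 are box C/D genes. Reducing overlapping peaks ended the call of AT1G06263, which lies inside the called gene AT1G29465, at 3.37 (limma adjusted p = 1). AT1G06233 was the steadiest of them within GFP-FIB1, at 398, 698, 293 and 853 RPM against 0, 11.1, 6.74 and 22.8 RPM in GFP. AT1G04527 was the least steady, at 143, 4746, 271 and 564 RPM in GFP-FIB1 against 24.5, 97.2, 14.2 and 22.6 RPM in GFP. Among these genes GFP-FIB1 replicate 2 was often highest and replicate 1 lowest. Words of 25 nt found elsewhere in the genome made up 56.1% of those of AT1G06263, 46.8% of AT1G06233 and 25% of AT2G35747. Reads on these genes could be split among copies.

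**Figure D3:**
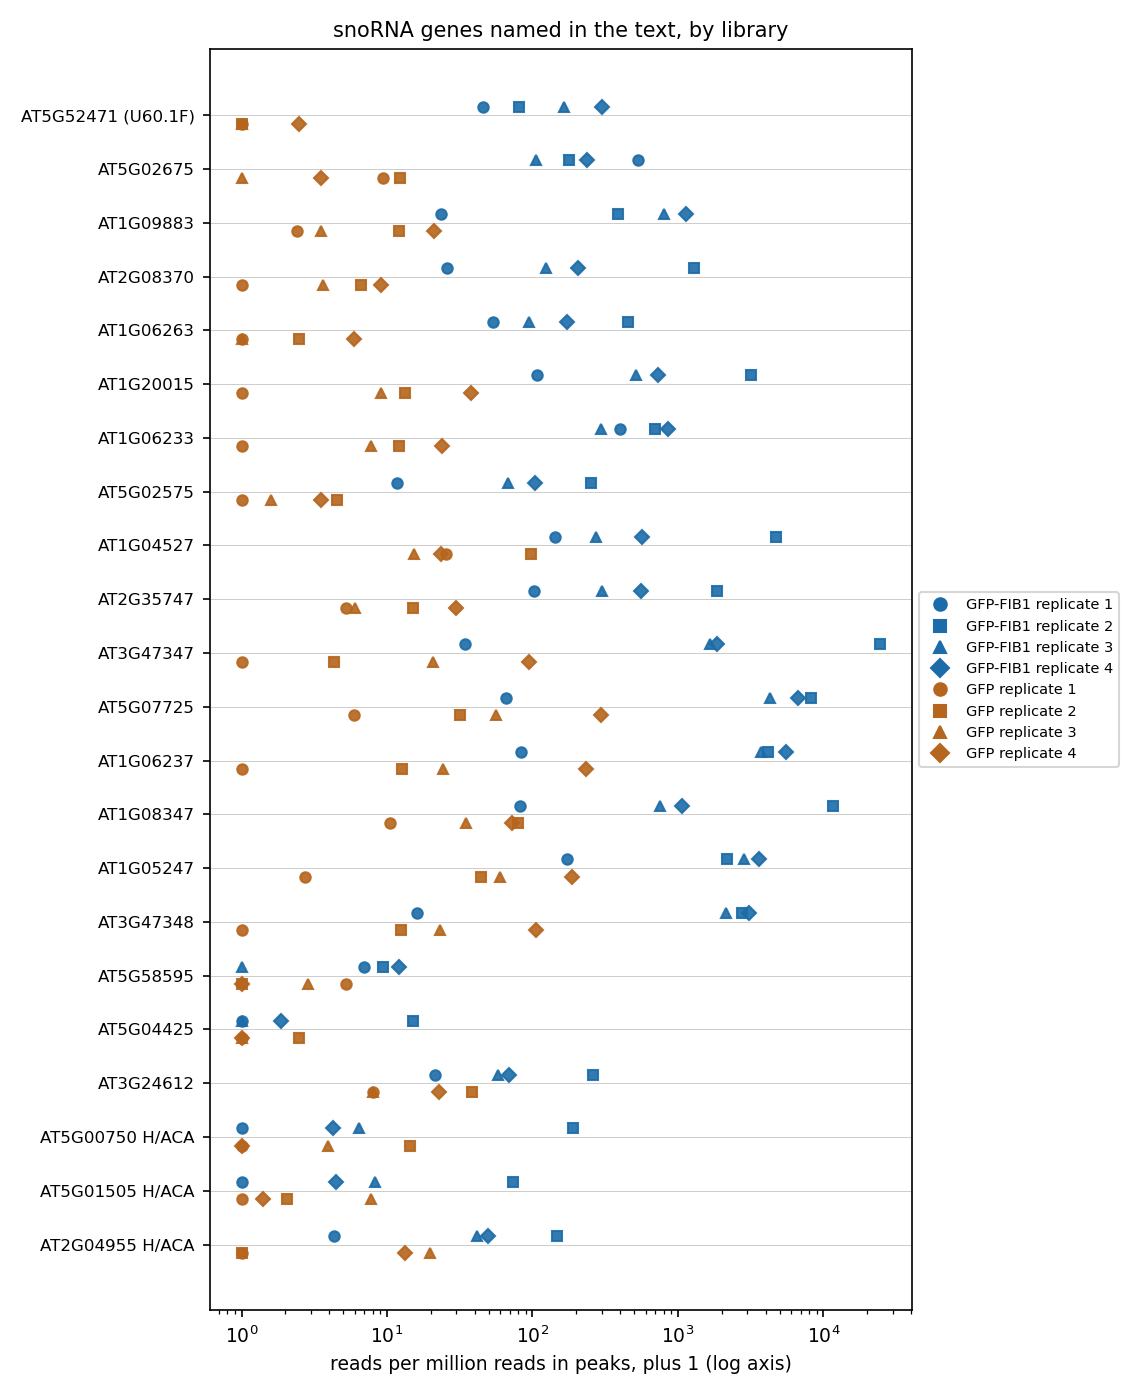
RPM plus 1 (log axis) of the snoRNA genes named in the text, 1 symbol per library, GFP-FIB1 above GFP in each row. In U60.1F the GFP-FIB1 libraries run from 44.4 to 301 RPM and no GFP library passes 1.47 RPM; the 3 H/ACA genes at the bottom overlap between groups.

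The most abundant box C/D RNAs were a partly different set. AT3G47347 averaged 7025 RPM in GFP-FIB1, but it had 33.6, 24533, 1663 and 1870 RPM in replicates 1 to 4, against 0, 3.35, 19.8 and 94.4 RPM in GFP. Replicate 2 was far above the other libraries, and replicate 1 lay below GFP replicate 4, so the groups overlapped. Its log2 fold change was 6.11 ± 1.32 (limma adjusted p = 0.0343). AT1G08347 was likewise dominated by replicate 2, with 80.6, 11612, 758 and 1067 RPM in GFP-FIB1 against 9.44, 78.7, 33.9 and 71.2 RPM in GFP (5.42 ± 1.17, limma adjusted p = 0.0349). AT5G07725 was high in 3 libraries, with 64.4, 8266, 4282 and 6692 RPM in GFP-FIB1 against 4.90, 30.6, 55.4 and 295 RPM in GFP (5.42 ± 0.85, limma adjusted p = 0.00314). AT1G06237, AT1G05247 and AT3G47348 had the same shape, with 2141 to 5546 RPM in replicates 2 to 4 of GFP-FIB1 and 15 to 172 RPM in replicate 1. Their GFP libraries held 0 to 231 RPM, and their log2 fold changes were 6.28, 4.91 and 5.76. With overlapping peaks reduced as above, the value for AT1G05247 was −0.018 and its call was lost (limma adjusted p = 1). The called gene AT1G16635 overlaps AT1G05247, so reads could pass to its name. In GFP-FIB1, 99.8% of the AT1G16635 reads lay in peaks that overlap a peak named for a snoRNA. The 10 leading box C/D genes of each library held 50.4, 60.0, 36 and 35.2% of its box C/D reads in GFP-FIB1, against 55.2, 45.3, 52.6 and 36.9% in GFP. The groups overlapped in that share (exact permutation p = 0.771, adjusted p = 1).

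At the other end, 3 box C/D genes changed least. AT5G58595 had 5.96, 8.42, 0 and 11.2 RPM in GFP-FIB1 against 4.20, 0, 1.85 and 0 RPM in GFP, and its groups overlapped (log2 fold change 0.95 ± 0.92). AT5G04425 had 0, 14.2, 0 and 0.86 RPM in GFP-FIB1 against 0, 1.47, 0 and 0 RPM in GFP. AT3G24612 had 20.3, 260, 57.2 and 68.3 RPM in GFP-FIB1 against 7.0, 37.3, 6.99 and 21.7 RPM in GFP. None of the 3 passed the threshold.

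The box C/D genes can also be divided by host gene, by copies in the genome and by complementarity to ribosomal RNA. Of 25 tested box C/D genes inside protein-coding genes 17 rose, with a median log2 fold change of 4.43, and of 129 outside them 82 rose, with a median of 4.20. Of 95 genes that share no 25-nt word with the rest of the genome 61 rose (median 4.26), and of 20 genes that share over 50% of their words 12 rose (median 4.02). Both boxes were found in 165 of the box C/D genes. Of these, 81 held a run of at least 10 nt before box D or D′ that is complementary to ribosomal RNA. The run matched 18S in 25, 5.8S in 4 and the 25S region in 52. Among tested genes with such a run 50 of 78 rose (median 4.14), and among those without one 48 of 74 rose (median 4.28). These counts are descriptions, and no difference between the groups of genes was tested.

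H/ACA snoRNAs, which do not carry fibrillarin, are the other large class of the nucleolus. None of the 23 tested H/ACA genes rose or fell in limma with the cluster term, and 0 passed with voom weights. Of the 23, 4 had an unadjusted p under 0.05 upwards, beside 1.77% of all regions. Their median log2 fold change was 0.70, and 20 of 23 were positive, beside 57.4% of all regions. AT2G04955 had 3.34, 146, 40.6 and 48.3 RPM in GFP-FIB1 against 0, 0, 18.6 and 12.3 RPM in GFP (2.16 ± 0.79, limma adjusted p = 0.881). AT5G00750 had 0, 190, 5.43 and 3.27 RPM in GFP-FIB1 against 0, 13.4, 2.95 and 0 RPM in GFP, and AT5G01505 had 0, 72.8, 7.29 and 3.44 RPM against 0, 1.05, 6.74 and 0.402 RPM. In all 3 the highest value was GFP-FIB1 replicate 2 and the groups overlapped. With replicate 1 only joined to the small cluster 0 H/ACA genes passed, and with the large cluster parted as well 1 passed, AT3G02725, named after its values were seen.

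Of 65 tested snoRNA genes left unclassified, 12 rose and none fell, beside 0.465% and 0.00632% of all regions. Their median log2 fold change was 1.67, beside 0.10 over all regions. Among the 12 was SNOR37-2, with 131, 1034, 695 and 1042 RPM in GFP-FIB1 against 11.2, 54.6, 81.2 and 55.2 RPM in GFP. AT1G08643 had 267, 190, 704 and 822 RPM in GFP-FIB1 against 4.20, 3.56, 7.84 and 33.7 RPM in GFP. Both stood clear of all GFP libraries, and they are named after their values were seen. The GFP-FIB1 libraries all lay above the GFP libraries in 11 of the 65 genes, beside 0.986% of all regions. They all lay below in 1, beside 0.828% of all regions. No spliceosomal snRNA (of 30), nuclear tRNA (of 206), annotated nuclear ribosomal RNA (of 4), miRNA precursor (of 32), chloroplast gene (of 100) or mitochondrial gene (of 65) passed in limma, and 12 of these had an unadjusted p under 0.05 upwards, where 1.77% of all regions did. The medians were 0.74 for snRNA, −0.01 for tRNA, −0.35 for nuclear ribosomal RNA and 0.42 for miRNA precursors.

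Outside annotated snoRNA genes 36 regions rose, and most of them traced back to snoRNA sequence. For 23, all of them genes, between 92.3 and 100% of the GFP-FIB1 reads lay in peaks that overlap a snoRNA gene on the same strand. Among those 23 were AT5G02645, AT2G43110 and AT2G35750, which the annotation gives as an RNA of no stated function, a subunit of the complex that contains U3, and an uncharacterized protein. AT5G02645 had 1400, 640, 969 and 2166 RPM in GFP-FIB1 against 15, 63.2, 13.4 and 82.9 RPM in GFP. AT2G35750, host of AT2G35747, had 281, 7961, 3103 and 5260 RPM in GFP-FIB1 against 44.4, 118, 107 and 244 RPM in GFP. The groups did not overlap in either gene, and their log2 fold changes were 5.16 ± 0.76 and 4.94 ± 0.74 (limma adjusted p = 0.00234 each). In AT2G43110 the log2 fold change was 4.97 ± 1.01, and replicate 2 of GFP-FIB1 was highest at 2833 RPM. Parts of these reads stand under both names in the peak lists, so these genes are not independent of the snoRNAs they overlap.

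Another 6 of the 36, 1 gene and 5 intergenic regions, had their strongest peak 4 to 77 nt from an annotated snoRNA gene on the same strand. The gene, AT3G04775, had 157, 779, 1159 and 1796 RPM in GFP-FIB1 against 6.65, 68.7, 30.5 and 94.8 RPM in GFP (4.24 ± 0.77, limma adjusted p = 0.00732). Of its GFP-FIB1 reads 40.3% lay in peaks that overlap a snoRNA gene, too few for the group of 23. The stretches of 3 of these regions, and that of AT3G07215, are shown because they carry boxes C and D, in capitals, close to the peak. In the 3 intergenic regions, boxes that belong to the annotated neighbour were not excluded. The run TTTCAAGCACT near box D of Intergenic8910 is also the run found before box D of its neighbour AT1G07393.
Intergenic14652: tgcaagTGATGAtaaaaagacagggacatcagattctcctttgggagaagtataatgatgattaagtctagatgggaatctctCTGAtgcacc
Intergenic46178: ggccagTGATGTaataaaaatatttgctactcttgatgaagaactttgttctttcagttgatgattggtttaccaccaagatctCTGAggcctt
Intergenic8910: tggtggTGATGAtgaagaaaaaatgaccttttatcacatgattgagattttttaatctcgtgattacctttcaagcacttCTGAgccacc
AT3G07215: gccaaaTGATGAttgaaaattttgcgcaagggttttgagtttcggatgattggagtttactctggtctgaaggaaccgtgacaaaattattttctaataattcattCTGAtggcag
The coordinates are chr1:27984784-27984876, chr4:13332871-13332964, chr1:17483903-17483992 and chr3:2297464-2297579, all on the minus strand of TAIR10.1. The pair was searched on the peak's strand as TGATGA with at most 1 mismatch, then CTGA 45 to 130 nt downstream, with 4 paired bases in a row between the 6 nt before box C and the 6 nt after box D. It overlapped the strongest peak in 3 of the 6 higher intergenic regions and in 0.739% of 11231 tested intergenic regions. Intergenic14652, 38 nt from AT1G74456, had 110, 292, 429 and 770 RPM in GFP-FIB1 against 0, 1.47, 3.62 and 30.9 RPM in GFP (5.69 ± 0.76, limma adjusted p = 0.00165), and its groups did not overlap. Intergenic8910, 28 nt from AT1G07393, also had groups that did not overlap (log2 fold change 3.23, limma adjusted p = 0.0163). Intergenic46178, 46 nt from AT4G26365, had 0, 29.3, 62.6 and 168 RPM in GFP-FIB1 against 0, 2.09, 0 and 6.83 RPM in GFP, with overlap through replicate 1. AT3G07215, annotated as an RNA of no stated function, had 25.3, 629, 1246 and 1680 RPM in GFP-FIB1 against 3.50, 6.28, 23.6 and 83.7 RPM in GFP (4.73 ± 0.66, limma adjusted p = 0.00217).

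An RNA of very high level that rose is nearly identical to U3, although the annotation lists it only as an uncharacterized RNA. AT5G08155 (chr5:21990623-21990808, plus strand) held 0.0402, 4.73, 1.88 and 1.92% of all reads in GFP-FIB1 replicates 1 to 4, against 0.00472, 0.0133, 0.0387 and 0.125% in GFP. It ranked 111, 3, 10 and 9 among all tested regions in GFP-FIB1 replicates 1 to 4, against 847, 270, 112 and 51 in GFP replicates 1 to 4, so GFP-FIB1 replicate 1 lay within the GFP range. Around its strongest peak 163 of 168 aligned nt (97.0%) are identical to the annotated U3B gene. A similar stretch at the start of PRIN2 (AT1G10522), a protein-coding gene, is 94.1% identical to U3D over 168 nt. The AT5G08155 stretch is shown with 120 nt before and 20 nt after the strongest GFP-FIB1 peak, which is in capitals and ends just before a CTGA.
AT5G08155 stretch: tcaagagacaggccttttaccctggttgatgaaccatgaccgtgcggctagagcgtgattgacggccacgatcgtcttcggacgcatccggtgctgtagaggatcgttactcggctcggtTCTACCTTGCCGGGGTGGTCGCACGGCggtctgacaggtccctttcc
It lies at chr5:21990650-21990816 on the plus strand. AT5G08155 had a log2 fold change of 4.36 ± 0.98 (limma adjusted p = 0.0489). Its limma adjusted p was 1 without the cluster term, 0.03 with replicate 1 only joined and 0.00146 with the large cluster parted as well. With overlapping peaks reduced its limma adjusted p was 0.0586, and that of PRIN2 was 0.056. PRIN2 had 35.3, 5521, 1866 and 2582 RPM in GFP-FIB1 against 7.35, 28.9, 86.9 and 146 RPM in GFP (4.04 ± 0.90, limma adjusted p = 0.0457). U3D (AT5G54075) had 66.5, 1305, 1326 and 1622 RPM in GFP-FIB1 against 5.95, 34.1, 86.5 and 114 RPM in GFP, and it rose (3.65 ± 0.72, limma adjusted p = 0.0159). U3B (AT5G53902) had 20.5, 3674, 1086 and 1178 RPM in GFP-FIB1 against 33.6, 57.2, 116 and 130 RPM in GFP, and did not pass (3.07 ± 0.93, limma adjusted p = 0.41). In these U3 copies replicates 2 to 4 of GFP-FIB1 lay above every GFP library and replicate 1 did not. Of the 25-nt words of the AT5G08155 stretch 69.9% also occur in the other 3 sequences, so reads could be split among the copies in a way the peak lists do not show. These 4 genes, AT3G07215, Intergenic8910 and Intergenic46178 are named after their values were seen.

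**Figure D4:**
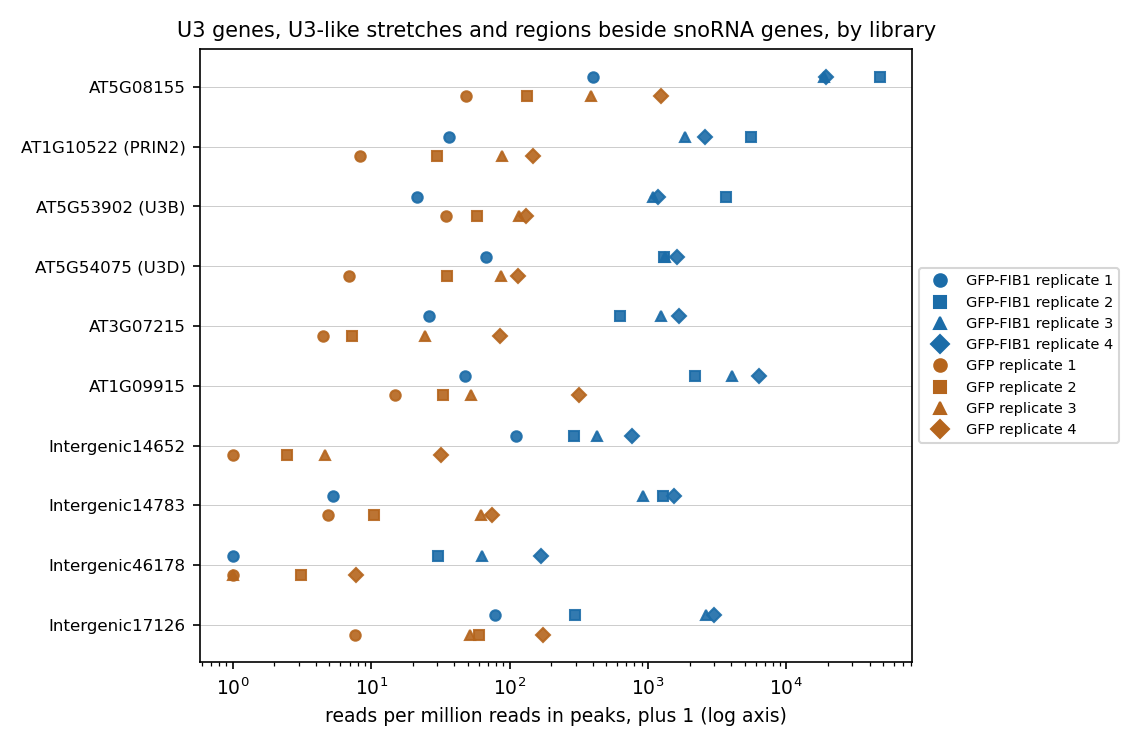
RPM plus 1 (log axis) of the U3 genes, the U3-like stretches and regions beside snoRNA genes, 1 symbol per library, GFP-FIB1 above GFP in each row. AT5G08155 reaches 47292 RPM in GFP-FIB1 replicate 2 against at most 1248 RPM in GFP.

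The remaining risers outside snoRNA genes were few. AT1G09915, an uncharacterized RNA, had 46.7, 2194, 4022 and 6375 RPM in GFP-FIB1 against 14.0, 32.2, 51.3 and 316 RPM in GFP (4.49 ± 0.76, limma adjusted p = 0.00465). No box pair of the kind searched lay around its strongest peak. SUC9, a sucrose transporter gene, had 0, 567, 21.4 and 42.0 RPM in GFP-FIB1 against 1.05, 1.68, 1.69 and 3.21 RPM in GFP, and FRB1 had 1.19, 20.1, 13.7 and 12 RPM against 1.75, 0.838, 0.843 and 0.803 RPM. In both genes replicate 1 of GFP-FIB1 fell within or below the GFP range, and neither was called with replicate 1 only joined (limma adjusted p = 0.721 for SUC9 and 0.399 for FRB1). The last was Intergenic37589, 14364 nt from the nearest snoRNA gene. AT1G09915, SUC9, FRB1 and Intergenic37589 are named after their values were seen. Across all 17226 protein-coding genes tested, 13 were called higher, and 10 of them overlapped a snoRNA gene.

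Only COS1, the riboflavin pathway gene for lumazine synthase, and Intergenic216 fell. COS1 had 0, 1.70, 4.72 and 3.96 RPM in GFP-FIB1 against 1.75, 2.09, 54.0 and 44.5 RPM in GFP (−3.31 ± 0.70, limma adjusted p = 0.0282). Intergenic216 had 0, 2.08, 4.72 and 2.58 RPM in GFP-FIB1 against 1.05, 0.628, 37.1 and 91.9 RPM in GFP (−3.36 ± 0.72, limma adjusted p = 0.031). In both, the high values were those of GFP replicates 3 and 4, and the groups overlapped. Neither was called without the cluster term, and Intergenic216 was not called with replicate 1 only joined (limma adjusted p = 0.0796).

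Of the genes for the snoRNP proteins themselves, few could be told from GFP. Of 16 genes listed for fibrillarin, NOP56, NOP58, the SNU13 family, the H/ACA proteins and nucleolins, 13 were tested and 1 rose, the FIB1 gene described above. Their median log2 fold change was 0.43. FIB2, the sister fibrillarin gene, had 0, 18.1, 39.9 and 61.7 RPM in GFP-FIB1 against 1.75, 10.1, 6.91 and 4.55 RPM in GFP (1.97 ± 0.74, limma adjusted p = 0.916). NOP56 had 7.63, 1.70, 141 and 199 RPM in GFP-FIB1 against 1.05, 7.96, 0.337 and 211 RPM in GFP, so its high values occurred in both groups. NHP2, an H/ACA protein gene, had 8.35, 259, 47.9 and 49.5 RPM in GFP-FIB1 against 3.85, 19.1, 68.8 and 18.3 RPM in GFP. It hosts the H/ACA gene AT5G01505. The other 9 tested genes (NUC-L1, NUC-L2, NAP57, NOP56-like, both NOP58 genes, both GAR1 genes and 1 gene of the SNU13 family) stayed between 0 and 40.2 RPM in every library.

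Markers of green tissue, root and seed were read in the same peaks, which are not a measure of the tissue makeup. All 6 green tissue markers were tested and none rose past the threshold in limma. Of the 6, 2 had an unadjusted p under 0.05 upwards, beside 1.77% of all regions. All 6 log2 fold changes were positive, beside 57.4% of all regions, with a median of 1.42. GFP-FIB1 replicates 2 to 4 lay above every GFP value in 5 of the 6, beside 5.27% of all regions, and replicate 1 did so in 0. The summed level of the 6 markers was 84.9 to 594 RPM in GFP-FIB1 and 70.7 to 220 RPM in GFP. The 3 root markers summed to 5.01 to 15.6 RPM in GFP-FIB1 and 11.3 to 19.9 RPM in GFP, and the 3 seed storage genes to 2.62 to 22.3 RPM in GFP-FIB1 and 15 to 97.9 RPM in GFP. No root or seed gene passed the threshold. The seed storage gene CRA1 had 2.62, 10.8, 19.6 and 8.08 RPM in GFP-FIB1 against 11.5, 9.63, 67.5 and 95.6 RPM in GFP, with an unadjusted p under 0.05 downwards, beside 1.79% of all regions (log2 fold change −3.0 ± 0.91, limma adjusted p = 0.39). Its high values were those of GFP replicates 3 and 4, as for COS1 and Intergenic216. The part of these differences in the snoRNA results was not tested.

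Within the box C/D genes, reads gathered before box D in part of the libraries only. Peak centres were binned by 4 nt, and the fullest bin upstream of box D held 13.9% of the reads on these genes in GFP-FIB1 replicate 3 and 15% in replicate 4, and each profile was concentrated between 8 and 32 nt upstream of it. GFP replicate 4 showed a like profile, with 16.9% of its reads 12 to 16 nt upstream. The read-weighted mean distance of peak centres from box D was −66.8, −17.3, −33.0 and −31.9 nt in GFP-FIB1 replicates 1 to 4, against −34.0, −33.7, −48.7 and −32.4 nt in GFP. Both the farthest and the nearest library were thus GFP-FIB1 libraries. In AT3G47347 the strongest peak covered nt 59 to 79, 60 to 63 and 60 to 64 in GFP-FIB1 replicates 2 to 4, ahead of or over the box D that starts at nt 72, and nt 60 to 63 in GFP replicate 4. In AT5G07725 it covered nt 63 to 89 in GFP-FIB1 replicates 3 and 4 and in GFP replicate 4. In both genes the strongest peak of GFP replicate 4 lay where that of GFP-FIB1 replicate 3 lay.

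**Figure D5:**
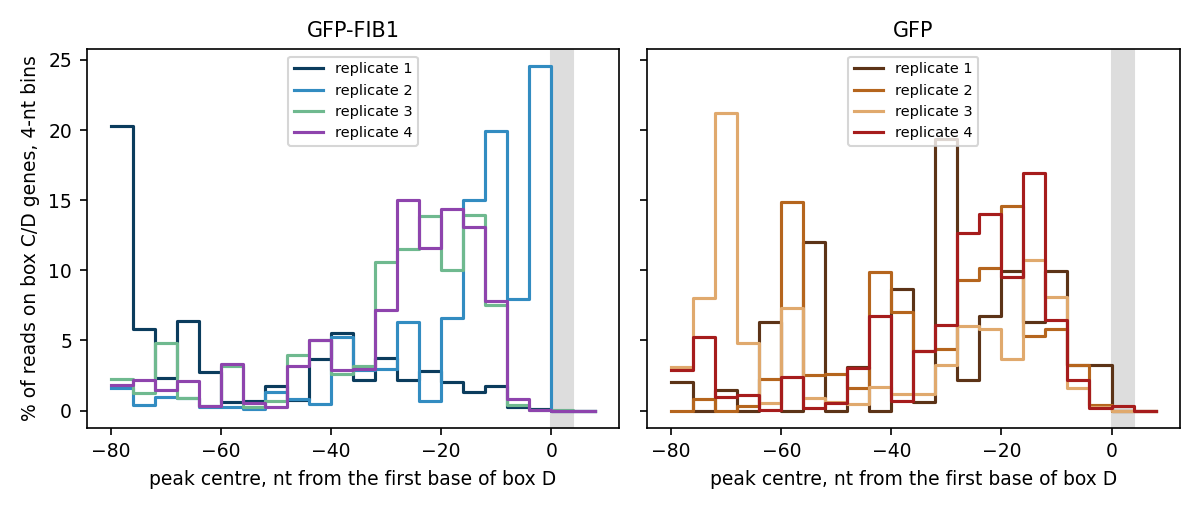
Share of the reads on box C/D genes (% per bin of 4 nt) by the distance of the peak centre from the first base of box D (nt, grey band over box D), GFP-FIB1 libraries on the left and GFP libraries on the right. GFP-FIB1 replicates 3 and 4 and GFP replicate 4 peak 8 to 32 nt before box D, while GFP-FIB1 replicate 2 peaks in the bin just before the box and replicate 1 far upstream.

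With each gene divided into 3 equal parts, the 3′ part held 5.71, 74.5, 42.5 and 44.0% of box C/D reads in GFP-FIB1 replicates 1 to 4, against 33.4, 34.2, 27.8 and 43.6% in GFP. The groups overlapped (exact permutation p = 0.629, adjusted p = 1). Peaks that touch box D held 0.800, 41.7, 0.837 and 0.994% of the reads in GFP-FIB1, against 17.9, 14.4, 4.68 and 3.93% in GFP. GFP-FIB1 replicate 2 was the highest of all libraries and the other 3 GFP-FIB1 libraries were the lowest (exact permutation p = 1, adjusted p = 1). With each gene weighted equally in place of each read, these shares were 4.69, 13.9, 3.53 and 2.95% in GFP-FIB1, against 19.6, 19.3, 16.6 and 15.4% in GFP. In that form the groups did not overlap, with means of 6.27 ± 5.16% in GFP-FIB1 and 17.7 ± 2.04% in GFP (SD, n = 4 each, two-sided exact permutation p = 0.0286, adjusted p = 0.114 over 4 such alternatives). Within the large cluster the means were 6.80% in 3 GFP-FIB1 libraries and 16% in 2 GFP libraries (exact permutation p = 0.2). The genes with at least 10 reads that enter these means numbered 113, 156, 152 and 150 in GFP-FIB1, against 26, 93, 110 and 130 in GFP, so the gene sets differ between libraries. A wide peak also touches box D more readily than a narrow one. The median peak on box C/D genes was 5, 8, 8 and 7 nt wide in GFP-FIB1 replicates 1 to 4. In GFP replicates 1 to 4 it was 20.5, 8, 9 and 9 nt. The part of peak width in the shares over box D was not tested.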

How the data were processed

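Each library has 1 peak list that the authors deposited with no header, giving for every peak its coordinates, strand, name and p-value. The deposited p-value is at most 0.0500. The name ends in a whole number of at least 3 taken here for the number of reads, since within libraries it went with the p-value at a Spearman correlation of −0.973 to −0.995. The submitters' processing notes name DESeq2. The aligner, peak caller and genome build were not given in the sources used here, and total library depth is unknown. Of 624188 peaks with a locus in RefSeq TAIR10.1, 99.9% fell within the locus and 100% had its strand, and that build was used for coordinates and sequences. Reads were summed per region name and scaled to reads in peaks. Regions with 10 reads at median depth in 4 libraries and 15 in all were tested with limma 3.58.1 (R 4.3.3) on log2(RPM + 1), which understates changes of low regions, in 1 fit of 12 libraries with 3 groups and 3 clusters of libraries (average linkage, protein-coding genes). GFP-FIB1 replicate 1 formed its own cluster. The script was tested on simulated data. For library values, exact permutation tests were two-sided (70 orders, SciPy 1.17.1). Box C was sought in the first 25 nt and box D in the last 20 nt of genes of at most 200 nt. H/ACA genes had ACA in the last 10 nt, an H box (ANANNA, N any base) near the middle and at least 110 nt. U3B and U3D were set by name as box C/D. U3 alignments used Biopython 1.88.

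Genes named are the 10 snoRNA genes and 6 other regions with the largest called rises and separated groups, the 6 highest box C/D genes, the H/ACA genes with the largest changes and levels, the 3 box C/D genes with the smallest changes and a list of snoRNP genes, besides those said to be chosen later. Members and lists were chosen with earlier results of these data known.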

Additional observations from a re-analysis of the deposited data

Results flagged for a closer look

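In 10 of 100 groups of 4 libraries, 1 library stood far from the other 3 (gap to its nearest neighbour over the range above 0.829, on log2(RPM + 1) for genes). That cutoff flags about 1 in 20 groups of independent values from a normal distribution, which these are not. The groups share libraries, and a group with 3 values of 0 is flagged whenever its other value is above 0. The count of 10 was therefore not set against chance. GFP-FIB1 replicate 2 stood apart with 41.7% of box C/D reads in peaks over box D. GFP-FIB1 replicate 1 stood low in 6 regions: AT5G07725 (64.4 RPM), AT1G06237 (82.0 RPM), AT1G05247 (172 RPM), AT3G47348 (15 RPM), U3D or AT5G54075 (66.5 RPM) and Intergenic14783 (4.29 RPM), the last an intergenic region 77 nt from the box C/D gene AT1G75166. In GFP the library that stood apart was replicate 4 for U60.1F or AT5G52471 (1.47 RPM), replicate 2 for AT5G04425 (1.47 RPM) and replicate 1 for FRB1 or AT5G01100 (1.75 RPM).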

How the results depend on the processing

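The count of regions higher in GFP-FIB1 (147, with 99 box C/D genes) stayed within 1.5 times under TMM, median-of-ratios and non-snoRNA scaling, a pseudocount of 0.5, a filter of 50 reads, peaks with p of at most 0.001 and reduced peaks. The replicate block in place of the clusters gave 181 higher, 3 lower and 123 box C/D genes; the numbers were not taken to pair the libraries, since same-numbered libraries correlated at −0.0443 to 0.561 in their deviations from the group means and 2 of 4 correlated best with their own number. Counts moved to 18 higher, 0 lower and 14 box C/D genes without the cluster term, to 31, 0 and 19 with a pseudocount of 5, to 1, 0 and 1 with no filter, to 82, 0 and 63 with voom weights, and to 21, 19 and 5 without the large cluster (1 residual degree of freedom, few regions tested). The 8 libraries alone gave 64 box C/D genes and 15 lower. The count of regions lower was 5 with TMM, 1 with 50 reads, 0 with p of at most 0.001, and, in fits chosen after seeing the data, 5 with replicate 1 only joined (116 higher, 80 box C/D genes), 14 with replicate 1 joined and the large cluster parted, and 14 in the large cluster alone. Leaving out 1 library gave 46 to 185 higher, 0 to 8 lower and 35 to 126 box C/D genes. For the differences GFP-FIB1 minus GFP in percentage points, it gave 5.71 to 9.48 for the box C/D share, −4.04 to 18.9 for the 3′ part of the gene, −9.33 to 4.29 for peaks over box D and −6.98 to 1.26 for the 10 leading genes. Without the large cluster these were 0.555, −28.1, −15.3 and 0.102. With each gene weighted equally the 3′ part gave −6.93 and box D −11.4. Fold changes turned round in AT1G05247 with reduced peaks (−0.018), NOP56 (AT1G56110) (−1.20 without GFP replicate 3, with 3.53 the highest, without GFP replicate 4), and NHP2 (AT5G08180, −0.077), U3B (AT5G53902, −1.06) and Intergenic14783 (−0.43) without the large cluster; the cause was not tested. Scaling moved the median of all regions from 0.10 to 0.05 (TMM), 0.02 (median of ratios) or 0.19 (reads outside snoRNA). A set of 35 called regions was followed through the settings. It leaves out some called regions named above, such as SNOR37-2, AT1G08643, Intergenic8910 and Intergenic37589. It includes AT5G41471 and Intergenic17126, whose values are not described above. Of the 35, 8 kept the call without the cluster term, 26 with replicate 1 only joined and 31 with the large cluster parted as well. With reduced peaks 26 kept it, 6 lost it, 1 turned round and the rest were not tested. Reduced peaks keep 1 region name per group of overlapping peaks, so reads can pass from a snoRNA gene to an overlapping gene. GFP replicate 1, with 795 box C/D reads, limits what can be seen in low genes.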
